A study of Mus musculus with 6 samples.

Results

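Cyclic AMP (cAMP) and cyclic GMP (cGMP) signalling was examined here in 2 related mouse pheochromocytoma (PHEO) cell lines, through 44 genes whose proteins make, break down or respond to these messengers. The genes were taken by name: adenylate cyclases, the natriuretic peptide receptors that make cGMP, phosphodiesterases, the kinases PKA and PKG, A-kinase anchoring proteins (AKAPs), the exchange factors called EPAC, and CREB factors. A gene counts as measured where the platform's annotation ties a probe set, the group of probes read as a single value, to that gene alone. Of the 44 genes 42 are measured, out of 19937 measured genes in all. Prkaca shares its probe set with a neighbouring gene, and Rapgef4 has none among those used here. Where a gene has several probe sets, the brightest over all 6 arrays was taken.

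RNA of MTT cells (3 samples) and MPC cells (3 samples) was read on 6 Affymetrix Mouse Gene 1.0 ST arrays, which carry 1 colour each. The MPC line came from Nf1 knock-out mice, and the MTT line was raised from liver metastases that MPC cells formed. No agent was given to either line. Each line is a single established line, the growth notes name MTT cells and the tissue label names a liver metastasis for all samples, so that titles and cell type labels alone set the lines apart, and the methods call the MTT samples separate without saying that they were separate cultures, and do not describe the MPC samples. The p-values therefore measure only how these samples vary, which may be technical. Values are log2 signals after RMA, a method that removes background, equalises the arrays and summarises probes; a difference of 1 is a 2-fold change, and signals of different genes are not comparable. In such bulk RNA, fewer cells that express a gene and less RNA per cell cannot be told apart.

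In cells of this kind, a hormone or transmitter receptor acts through a stimulatory G protein on an adenylate cyclase, which makes cAMP from ATP. The cAMP frees the catalytic subunits of PKA from their regulatory subunits, activates EPAC, and through phosphorylation of CREB switches on genes, while AKAPs hold PKA near its substrates. cGMP comes from receptors for natriuretic peptides and from the nitric oxide receptor, and acts mainly on PKG. Phosphodiesterases end both signals by hydrolysing the cyclic nucleotides. In chromaffin cells, from which PHEO arises, cAMP is known for its effects on catecholamine synthesis and on secretion.

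Arrays resembled each other closely, with array medians of 7.73 to 7.77 and Pearson's r over all probe sets of 0.9974 to 0.9978 within MTT and 0.9969 to 0.9973 within MPC cells. All 9 measured chromaffin markers were clearly present, at 9.54 to 13.49 in either line. At a limma adjusted p under 0.05, 3 of them differed between the lines, or 33.3% against 7.87% of all genes. Slc18a1 and Gata3 were higher in MTT cells, with log2 differences of 0.27 and 0.19, and Chgb was lower, with -0.15. As a gauge of low signal, olfactory receptor genes were used, 1027 in all, which PHEO cells are not expected to express, and the 95th percentile of their mean signals was 7.15. Below that value a gene is described here as lying in the olfactory receptor range. Of 6 measured hepatocyte markers 4 lay in that range in both lines, Alb and Ttr among them at 6.05 to 6.32. The other 2, Apoa1 and Trf, lay above it in both. Other lists were mixed. In the range in both lines were 4 of 6 adrenal cortex, 2 of 6 fibroblast and 4 of 5 endothelial markers. So were 2 of 4 leukocyte and 1 of 3 glial markers. Whether other cell types were absent was not tested. Trf, transferrin, was the only called marker of another cell type, with a log2 difference of 0.60, and its part in the results was not tested. The log2 signals of the 6 hepatocyte markers, Trf included, summed to 44.34 to 44.77 on MTT and 43.80 to 44.23 on MPC arrays. The other 5 were not called, with differences from -0.07 to 0.06.

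Of the 42 measured genes, 11 differed between the lines, 7 higher and 4 lower in MTT cells. None was a measured PKA catalytic subunit, EPAC or CREB factor. Prkg1, which encodes a cGMP-dependent protein kinase, had the largest difference of the 42. The adenylate cyclases Adcy8 and Adcy1 were higher and Adcy5 was lower. Among phosphodiesterases Pde4d, Pde10a and Pde3b were higher and Pde5a, which degrades cGMP, was lower. The PKA regulatory subunit Prkar2b was higher, and the anchoring protein Akap12 and the natriuretic peptide receptor Npr2 were lower.

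These calls are from limma with Benjamini-Hochberg adjustment over all genes, at an adjusted p under 0.05. They make up 26.2% of the 42 genes, where 7.87% of all genes tested were called in either direction. Of all genes 3.93% were higher and 3.94% lower (784 and 785 genes, or 857 and 561 once array medians were centred). Among genes with a mean signal above the olfactory receptor range, 32.3% of members were called, against 10.7% of all such genes. The members were chosen with earlier results of these data known, so these shares are no test of the set. The median log2 difference of the 42 was 0.05 against -0.01 over all genes, and the median absolute difference was 0.08 against 0.05. MTT and MPC arrays did not overlap for 21 of the 42 genes, or 50%, against 27.2% of all genes. Of the 31 genes not called, 6 had an unadjusted p under 0.05 (limma). With the called genes that made 17 of the 42, where 4091 of all 19937 genes had such a p. The differences of the 31 ran from -0.10 to 0.12, with 95% intervals that together span -0.18 to 0.21.

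**Figure D1:**
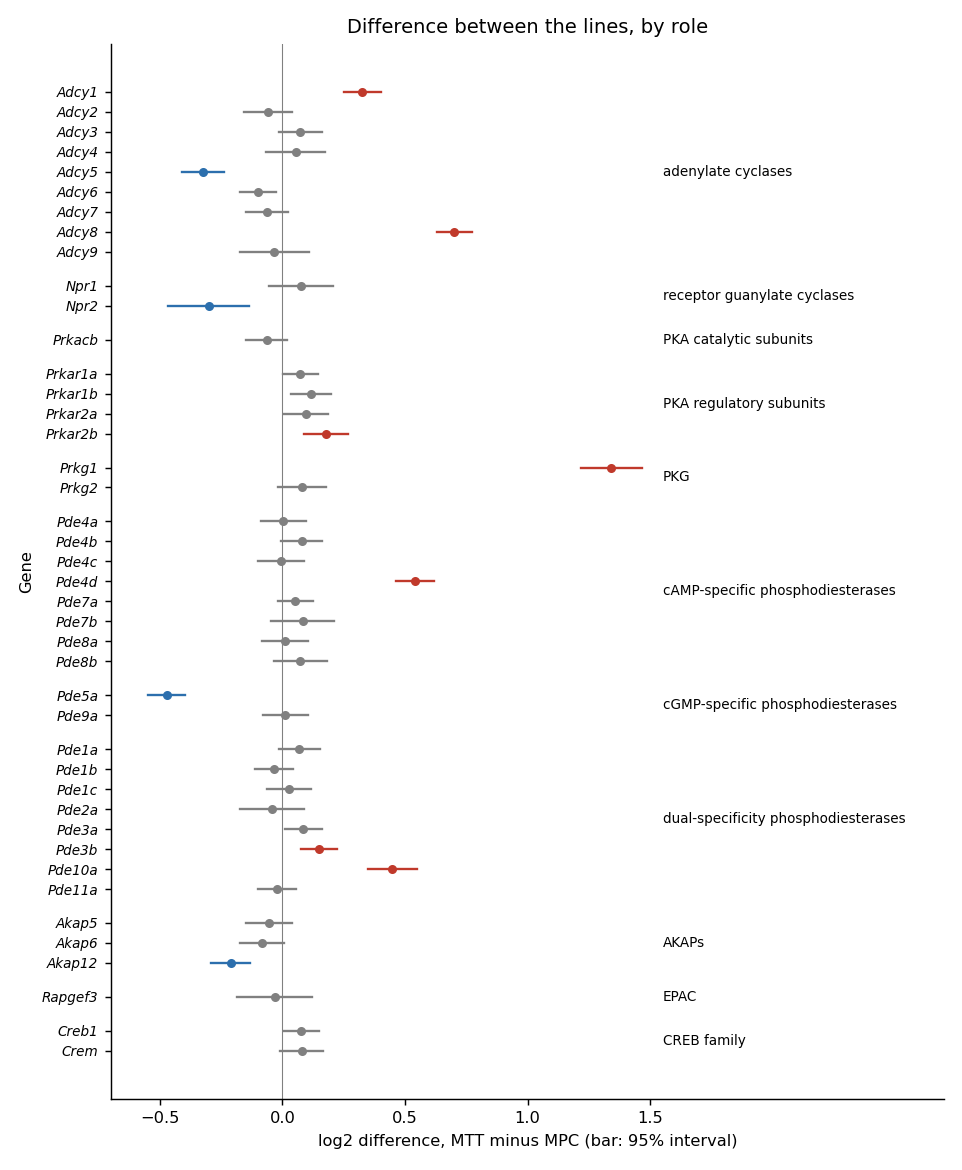
log2 difference between MTT and MPC cells (horizontal axis, MTT minus MPC) of the 42 measured genes (vertical axis), grouped by role, with 95% intervals as bars. Red marks genes higher and blue genes lower (limma, adjusted p under 0.05), grey the others; Prkg1 stands apart at 1.34, and Pde5a is the lowest at -0.47.

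PKG phosphorylates ion channels and other targets when cGMP binds it. Prkg1 read 8.40, 8.50 and 8.31 on the MTT arrays and 7.13, 7.01 and 7.06 on the MPC arrays. Every MTT array lay above every MPC array, by more than 1 on the log2 scale. The log2 difference was 1.34 (standard error 0.05, limma adjusted p = 8.43e-06). Since the MPC mean of 7.06 lay in the olfactory receptor range, only a bound is given for the fold, and the MTT signal was at least 2.36-fold higher. Prkg1 lies on chromosome 19, whose genes with a signal above the median had a median difference of -0.11, so its increase ran against its chromosome. Prkg2, the membrane-bound relative, read 6.63 in MTT and 6.55 in MPC cells, in the olfactory receptor range in both lines, with a difference of 0.08 (95% interval -0.02 to 0.18).

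RefSeq lists start sites for Prkg1 in separate windows on GRCm38.p6, shown because the gene has alternative first exons that this probe set value cannot tell apart. Beside them stand the window of Pde5a, the called gene that fell the most, and that of Prkar1a, the only one of the 35 listed genes with a window used here that carries the full cAMP response element (CRE). Each runs 5′ to 3′ on the gene's strand from 250 bases before the annotated start to 50 after it. Capitals mark matches on either strand to the CRE TGACGTCA, to its core TGACG, which the CRE contains on both strands, or to the GC box GGGCGG.
Prkg1, chr19:31764984-31765283, minus strand: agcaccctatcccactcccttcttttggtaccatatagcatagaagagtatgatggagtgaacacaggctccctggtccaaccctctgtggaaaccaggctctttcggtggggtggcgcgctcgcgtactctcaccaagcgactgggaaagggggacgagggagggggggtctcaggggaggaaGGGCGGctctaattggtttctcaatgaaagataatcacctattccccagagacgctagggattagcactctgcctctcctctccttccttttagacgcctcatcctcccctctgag
Prkg1, chr19:31664321-31664620, minus strand: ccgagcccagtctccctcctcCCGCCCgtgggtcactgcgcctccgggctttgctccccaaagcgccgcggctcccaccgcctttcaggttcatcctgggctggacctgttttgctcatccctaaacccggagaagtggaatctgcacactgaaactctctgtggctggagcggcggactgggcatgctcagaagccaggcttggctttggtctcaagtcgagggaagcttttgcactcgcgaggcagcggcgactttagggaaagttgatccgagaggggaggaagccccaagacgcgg
Pde5a, chr3:122728908-122729207, plus strand: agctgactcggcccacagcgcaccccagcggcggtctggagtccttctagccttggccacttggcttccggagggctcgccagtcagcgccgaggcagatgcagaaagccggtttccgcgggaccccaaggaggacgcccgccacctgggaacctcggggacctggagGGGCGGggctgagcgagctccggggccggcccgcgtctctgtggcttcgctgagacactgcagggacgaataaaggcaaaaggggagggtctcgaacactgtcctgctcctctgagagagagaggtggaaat
Prkar1a, chr11:109650699-109650998, plus strand: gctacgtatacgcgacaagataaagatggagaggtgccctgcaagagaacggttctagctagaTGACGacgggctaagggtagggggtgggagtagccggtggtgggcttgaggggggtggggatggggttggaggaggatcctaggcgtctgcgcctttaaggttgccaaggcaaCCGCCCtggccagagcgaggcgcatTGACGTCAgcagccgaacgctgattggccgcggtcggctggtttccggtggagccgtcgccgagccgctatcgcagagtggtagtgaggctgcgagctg

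Each Prkg1 window held a single GC box, at position -66 in the first and -229 in the second, counted from the start at 0, and neither held the CRE core. The Pde5a window held a GC box at -82. The CRE of Prkar1a lay at -49 in the window shown, with a separate core at -187 and a GC box at -74, and a further window of that gene overlaps it and holds the same site. Across all 32851 windows of this length 1.79% held the CRE, 20.8% its core and 35.7% a GC box. Of the called genes 8 had 11 windows here, while Adcy8, Pde3b and Akap12 had none. Of these windows 0 held the core and 8 held a GC box, against 16 and 34 of the 73 windows of the 35 listed genes. These are matches of letters, and say nothing of what binds there.

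Adenylate cyclases make cAMP, and their isoforms respond differently to calcium and to G proteins. Adcy8 and Adcy1 were higher in MTT cells, while Adcy5 was lower. These 3 calls are 33.3% of the 9 adenylate cyclases, against 7.87% of all genes. Whether the differences follow how isoforms respond to calcium was not tested. Adcy8 read 11.46, 11.46 and 11.46 on the MTT arrays and 10.73, 10.76 and 10.78 on the MPC arrays. The MTT arrays were nearly identical and lay above all MPC arrays, with a difference of 0.70 (standard error 0.03, limma adjusted p = 1.48e-05), or 1.63-fold. Adcy1 read 10.06, 10.01 and 10.04 on the MTT arrays and 9.71, 9.69 and 9.73 on the MPC arrays. Its lines did not overlap, and the difference was 0.33 (standard error 0.03, limma adjusted p = 0.000798). Adcy5 read 8.22, 8.15 and 8.20 on the MTT arrays and 8.56, 8.48 and 8.52 on the MPC arrays. Here each MPC array was above each MTT array, with a difference of -0.33 (standard error 0.04, limma adjusted p = 0.00163).

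The other 6 adenylate cyclases did not pass. Adcy6 came nearest, at 11.00 in MTT and 11.10 in MPC cells, with a difference of -0.10 (95% interval -0.17 to -0.03, limma adjusted p = 0.111). A fit that let the variance follow the signal called Adcy6 (limma adjusted p = 0.0252). So did a fit to the brighter genes alone, those over the median (limma adjusted p = 0.0266). Adcy3, Adcy4, Adcy7 and Adcy9 had differences of 0.07, 0.05, -0.06 and -0.03. Adcy2 lay in the olfactory receptor range in both lines, with a difference of -0.06. It lies on chromosome 13, where the median difference of genes above the median signal was 0.20. After each array's own median over such genes of the chromosome was subtracted, its difference was -0.24 and passed (adjusted p = 0.0359).

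The natriuretic peptide receptors Npr1 and Npr2 are guanylate cyclases of the cell surface. Npr2, the receptor for C-type natriuretic peptide, read 6.65, 6.74 and 6.85 on the MTT arrays and 7.15, 6.91 and 7.09 on the MPC arrays. The lines did not overlap, though the third MTT and the second MPC array came close. The difference was -0.30 (standard error 0.07, limma adjusted p = 0.0418), both means lay in the olfactory receptor range, and no fold is given. The call ended in 4 of the 6 fits that dropped an array, those lacking MTT replicate 1, MTT replicate 2, MPC replicate 1 and MPC replicate 3 (adjusted p 0.111 to 0.139). Npr1, the receptor for atrial natriuretic peptide, read 7.31 in MTT and 7.24 in MPC cells, a difference of 0.08 (95% interval -0.06 to 0.21).

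PKA is a tetramer of catalytic and regulatory subunits. Of the 4 measured regulatory subunits only Prkar2b, the type II beta subunit found in neural and endocrine tissue, passed. That is 25% of the 4, against 7.87% of all genes. The lines did not overlap for any of the 4, as for 27.2% of all genes, though for Prkar2a the nearest arrays, at 10.99 each, were barely apart. Prkar2b read 11.54, 11.50 and 11.51 on the MTT arrays and 11.37, 11.38 and 11.27 on the MPC arrays. The difference was 0.18 (standard error 0.04, limma adjusted p = 0.0282), and dropping any single array ended the call (adjusted p 0.0509 to 0.105). Prkar1b read 10.79, 10.73 and 10.79 on the MTT arrays and 10.67, 10.67 and 10.62 on the MPC arrays. That difference, 0.12 (standard error 0.04, limma adjusted p = 0.0946), did not pass, nor did those of Prkar2a at 0.10 and Prkar1a at 0.07. Prkar1b passed where the variance followed the signal (adjusted p = 0.0226) and in the fit to brighter genes (adjusted p = 0.0227). Prkar1a passed in the former (adjusted p = 0.0303) and with each gene's own variance (adjusted p = 0.0203). The catalytic subunit Prkacb had the opposite sign, 12.05 in MTT and 12.11 in MPC cells, a difference of -0.06 (95% interval -0.15 to 0.02).

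**Figure D2:**
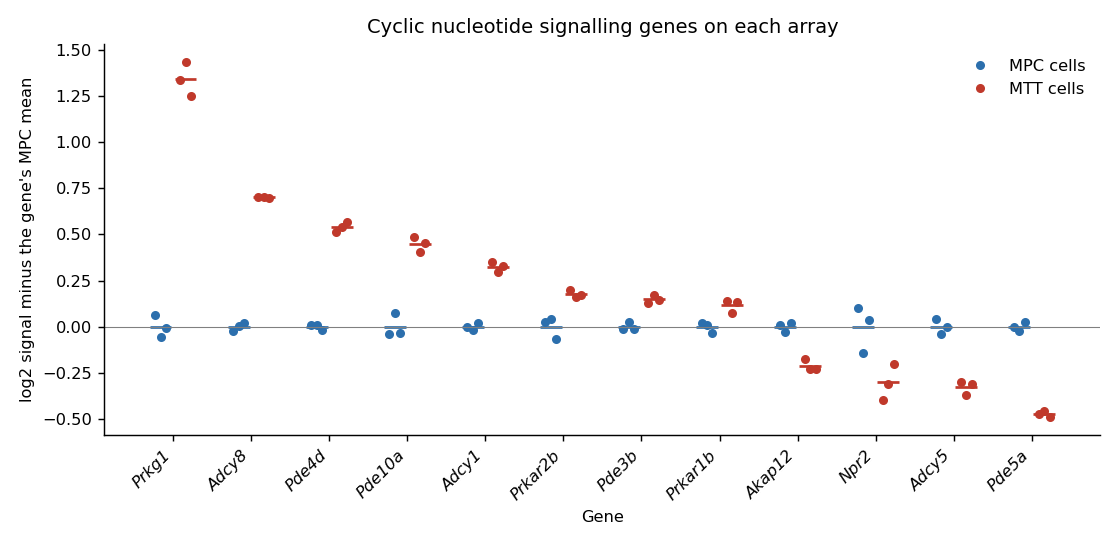
log2 signal of each array minus the gene's MPC mean (vertical axis) for the 11 called genes and Prkar1b (horizontal axis). Points are arrays, 3 MTT in red and 3 MPC in blue, and bars are means of 3; the lines do not overlap for any of these genes, and come closest for Prkar1b and Npr2.

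Of 18 measured phosphodiesterases 3 were higher, 1 was lower and 14 were not called, or 22.2% called against 7.87% of all genes. Those specific for cAMP had 1 call among 8. Pde4d, of the family that rolipram inhibits, read 9.73, 9.76 and 9.78 on the MTT arrays and 9.22, 9.22 and 9.19 on the MPC arrays. Its lines were clearly apart, with a difference of 0.54 (standard error 0.03, limma adjusted p = 4.72e-05), or 1.45-fold. Pde4d has further probe sets of its own: the second, read at 8.13 in MTT and 7.58 in MPC cells, differed by 0.55 (limma adjusted p = 0.00671 over all single-gene probe sets), and the third, in the olfactory receptor range at 5.18 and 5.05, differed by 0.14 (adjusted p = 0.201). The gene lies on chromosome 13, and after subtraction of chromosome medians its difference was 0.36 and still passed. Its relatives Pde4a, Pde4b and Pde4c had differences of 0.00, 0.08 and -0.01. Pde7a, Pde7b, Pde8a and Pde8b had differences of 0.05, 0.08, 0.01 and 0.07, the last on chromosome 13 as well, and the latter 3 lay in the olfactory receptor range.

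Pde5a, the cGMP-specific enzyme that sildenafil blocks, went the other way from Prkg1. Pde5a read 10.52, 10.53 and 10.50 on the MTT arrays and 10.99, 10.96 and 11.02 on the MPC arrays. The MPC arrays were all the higher, far beyond the spread within a line, with a difference of -0.47 (standard error 0.03, limma adjusted p = 9.85e-05), so that the MPC signal was 1.39-fold that of MTT cells. Pde9a, also specific for cGMP, lay in the olfactory receptor range in both lines, with a difference of 0.01.

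Of the 8 enzymes that hydrolyse both nucleotides, Pde10a and Pde3b were called, both higher. That is 25%, where 7.87% of all genes were called and 3.93% were higher. Pde10a, best known from the striatum, read 9.40, 9.32 and 9.37 on the MTT arrays and 8.87, 8.99 and 8.88 on the MPC arrays. The difference was 0.45 (standard error 0.04, limma adjusted p = 0.000667), and no array of a line reached the other line. Pde3b, which cGMP inhibits and which insulin activates in fat cells, read 9.28, 9.32 and 9.30 on the MTT arrays and 9.14, 9.17 and 9.14 on the MPC arrays. Its difference of 0.15 (standard error 0.03, limma adjusted p = 0.0283) was small, and dropping any single array ended the call (adjusted p 0.0653 to 0.117). Pde3a, of the same family, had a difference of 0.09 (95% interval 0.01 to 0.16, limma adjusted p = 0.184). Of the calcium- and calmodulin-dependent enzymes, Pde1a, Pde1b and Pde1c had differences of 0.07, -0.03 and 0.03. Pde2a, which cGMP stimulates, had a difference of -0.04 and Pde11a had a difference of -0.02. Pde1a, Pde1c and Pde11a lay in the olfactory receptor range in both lines.

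Akap12, also called gravin, a scaffold that ties PKA and protein kinase C to the membrane, read 10.04, 9.99 and 9.99 on the MTT arrays and 10.23, 10.19 and 10.24 on the MPC arrays. The MPC arrays were the higher without overlap, and the difference was -0.21 (standard error 0.03, limma adjusted p = 0.00815). Akap5, a scaffold of neuronal synapses, and Akap6, which anchors PKA at the nuclear envelope of muscle cells, had differences of -0.05 and -0.08, and Akap6 lay in the olfactory receptor range. Rapgef3, which encodes EPAC1, read 7.16 in MTT and 7.19 in MPC cells, a difference of -0.03 (95% interval -0.18 to 0.12). Creb1 read 11.29 and 11.21, and its relative Crem, whose internal promoter yields the repressor ICER, read 9.06 and 8.99, with differences of 0.08 each. Neither passed (limma adjusted p = 0.215 and 0.292). Their arrays did not overlap between lines, as for 27.2% of all genes.

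The 11 calls differ in how firmly the arrays hold them. For Prkg1, Adcy8, Pde4d, Pde5a, Pde10a, Adcy1, Adcy5 and Akap12 the call held in each alternative tested, including each fit without an array, while the calls of Prkar2b, Pde3b and Npr2 ended in some (Prkg1 and Npr2, under the median signal, were not tested where only genes above it were kept).

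**Figure D3:**
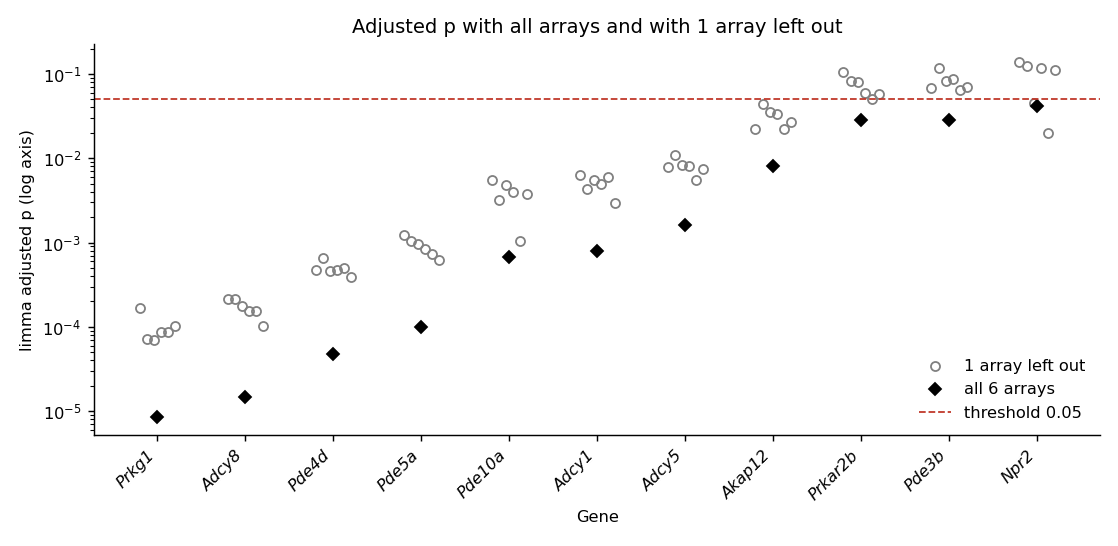
Adjusted p from limma (vertical axis, log scale) of the 11 called genes (horizontal axis) with all 6 arrays (black diamonds) and in the 6 fits that each leave out an array (open circles); the dashed line is the threshold of 0.05. All circles of 8 genes are under the line, from Prkg1 at 6.89e-05 to 0.000167 up to Akap12 at 0.0222 to 0.0442.

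The nearest measured genes on the chromosome, 3 on each side with a mean signal above the olfactory receptor range where available, were read beside each called member, a rule chosen after the values were seen. Around Prkg1, MTT cells had 0 higher and 2 lower genes among 6: Asah2, a ceramidase, had a log2 difference of -0.28 and Sgms1, a sphingomyelin synthase, -0.20, while Cstf2t had -0.07 and Dkk1 -0.01. Around Adcy8, the potassium channel gene Kcnq3 differed by 0.64 (limma adjusted p = 2.54e-05) and Cyrib by -0.23, and the other 4 were not called. Around Pde4d 3 of 6 were higher, where 3.93% of all genes were. On its chromosome, 13, genes above the median signal had a median difference of 0.20. Plk2, a polo-like kinase, was higher by 0.55 (limma adjusted p = 0.000108). Rab3c, a GTPase of secretory vesicles, by 0.23 and Gpbp1 by 0.20 were near that median. Around Adcy1 the focal adhesion gene Tns3 was higher by 0.35 and the other 5 were not called. None of the 6 neighbours of Adcy5, of Npr2 or of Pde3b was called by limma, nor any of the 4 of Akap12. Around Pde10a 1 was higher and 1 lower, and around Pde5a and Prkar2b 1 each was lower.

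**Figure D4:**
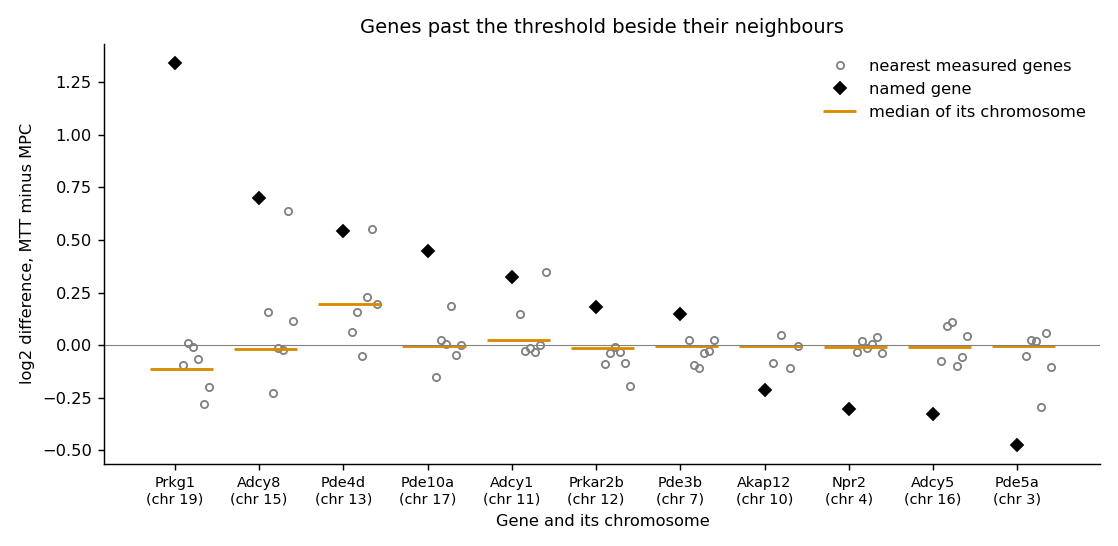
log2 difference, MTT minus MPC (vertical axis), of each called gene (diamond) and up to 3 of its nearest measured genes a side with a signal above the olfactory receptor range (open grey circles), by called gene (horizontal axis). The orange line is the median of the chromosome; Prkg1, at 1.34, stands above neighbours between -0.28 and 0.01, while Plk2 lies level with Pde4d and Kcnq3 near Adcy8.

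Genes around these were listed by role, also with earlier results of these data known, 127 in 13 lists, of which 116 are measured. Of the 116, 6 were higher and 12 lower in MTT cells, which is 15.5% against 7.87% of all genes, with a median difference of 0.01. With each gene's own variance in place of limma's moderated one, 1 was higher and 4 were lower: the calls of Nos1, Tshr, Ptger4, Calcrl and Hcn3 held, and those of the others named below, Rims2 included, ended. Nos1, the neuronal nitric oxide synthase whose product activates soluble guanylate cyclase, read 8.28, 8.18 and 8.25 on the MTT arrays and 9.19, 9.16 and 9.15 on the MPC arrays. Its lines did not overlap, with a difference of -0.93 (standard error 0.04, limma adjusted p = 8.43e-06). The soluble guanylate cyclase subunit Gucy1a1 was higher in MTT cells, with a difference of 0.23 (standard error 0.04, limma adjusted p = 0.0151), not called without MTT replicate 1 or 2 or MPC replicate 1 (adjusted p 0.0516 to 0.0625). Its partner Gucy1b1 read 11.28 and 11.26 and was not called. None of the 4 genes for natriuretic peptides and their clearance receptor passed (limma, 1 at an unadjusted p under 0.05, as were 4091 of all 19937 genes).

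Of 20 measured receptors that couple to the stimulatory G protein, 4 were lower, where 3.94% of all genes were, and none was higher. Tshr, the thyrotropin receptor, read 6.65, 6.78 and 6.72 on the MTT arrays and 8.31, 8.39 and 8.21 on the MPC arrays. The MTT mean lay in the olfactory receptor range, so the MPC signal was at least 2.22-fold higher, and limma gave a difference of -1.59 (standard error 0.05, limma adjusted p = 4.53e-06). Ptger4, a receptor for prostaglandin E, had a difference of -0.59 (standard error 0.05, limma adjusted p = 0.000206), Calcrl, the calcitonin receptor-like receptor, a difference of -0.27 (standard error 0.04, limma adjusted p = 0.00553), and Sctr, the secretin receptor, a difference of -0.37 (standard error 0.07, limma adjusted p = 0.0141); the last call ended without MTT replicate 2 or 3 or MPC replicate 1 (adjusted p 0.0511 to 0.0587). Adcyap1r1, the receptor for the chromaffin cell transmitter PACAP, read 12.75 in MTT and 12.73 in MPC cells and was not called. None of 6 measured G alpha subunits that act on adenylate cyclase passed (limma, 0 at an unadjusted p under 0.05, where 4091 of all 19937 genes were). Gnai2 read 12.51 and 12.46. Gnas shares its probe set with another gene and is not reported.

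**Figure D5:**
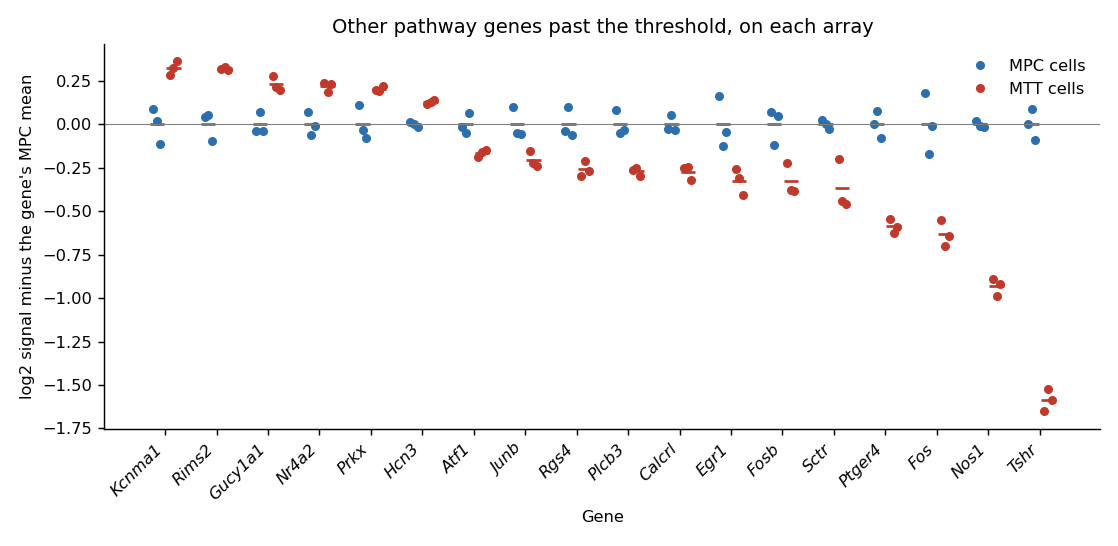
log2 signal of each array minus the gene's MPC mean (vertical axis) for the 18 other pathway genes past the threshold (horizontal axis). Points are arrays, 3 MTT in red and 3 MPC in blue, and bars are means of 3; Tshr, at -1.59, and Nos1, at -0.93, lie lowest.

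Downstream, 20 genes known to respond to CREB gave 1 higher and 4 lower, with a median difference of 0.01. That is 25% called, against 7.87% of all genes, 3.93% higher and 3.94% lower. The lower ones were immediate early genes, which other signals also induce. Fos read 8.55, 8.40 and 8.45 on the MTT arrays and 9.28, 8.93 and 9.09 on the MPC arrays. The MPC arrays varied more than the MTT arrays, and the difference was -0.63 (standard error 0.08, limma adjusted p = 0.00342). Fosb and Egr1 had differences of -0.33 (standard error 0.06, limma adjusted p = 0.0183) and -0.32 (standard error 0.07, limma adjusted p = 0.0375), and Junb, named beyond the rule to complete the count, a difference of -0.20 (standard error 0.05, limma adjusted p = 0.0487). Fosb, Egr1 and Junb were no longer called in 4, 5 and 6 of the 6 fits without an array (adjusted p 0.0567 to 0.153). Nr4a2, an orphan nuclear receptor and also an immediate early gene, was higher, with a difference of 0.22 (standard error 0.04, limma adjusted p = 0.0171). It was not called without MTT replicate 1 or 3 or MPC replicate 2 (adjusted p 0.0605 to 0.0706). Nr4a1, Nr4a3, Per1 and Dusp1, not called, had differences of -0.13, 0.09, 0.10 and 0.07. The catecholamine enzymes Th and Dbh had differences of -0.03 and 0.01 and were not called. Among 9 CREB partners Atf1, a CREB relative, was lower by a difference of -0.16 (standard error 0.04, limma adjusted p = 0.0412), lost when any single array was dropped (adjusted p 0.0574 to 0.137).

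Of 9 measured substrates of PKG, 1 was higher and 2 were lower, or 33.3% called against 7.87% of all genes. Kcnma1, the large-conductance potassium channel, had a difference of 0.32 (standard error 0.05, limma adjusted p = 0.0094), which became 0.19 and missed the threshold when its probe sets were averaged. Plcb3, a phospholipase C, had a difference of -0.27 (standard error 0.04, limma adjusted p = 0.00746). It lies on chromosome 19, and after subtraction of chromosome medians its difference was -0.16 and did not pass. Rgs4, which turns G protein signals off, had a difference of -0.26 (standard error 0.05, limma adjusted p = 0.0166), not called without MTT replicate 1 or 3 (adjusted p 0.0607 and 0.0706).

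Among the remaining lists, Rims2, a partner of EPAC2 in granule release, was higher with a difference of 0.32 (standard error 0.04, limma adjusted p = 0.00424), Prkx, a PKA-like kinase, with 0.20 (standard error 0.05, limma adjusted p = 0.0472), and Hcn3, a channel of the cyclic nucleotide-gated superfamily, with 0.13 (standard error 0.03, limma adjusted p = 0.0404). The calls of Prkx and Hcn3 ended in 5 and 6 of the 6 fits without an array (adjusted p 0.110 to 0.149 and 0.0837 to 0.131). None of the 11 other AKAPs, 2 exporters of cyclic nucleotides or 7 genes of photoreceptor phosphodiesterases and soluble adenylate cyclase was called by limma. Of them 2, 0 and 1 had an unadjusted p under 0.05, where 4091 of all 19937 genes had.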

How the data were processed

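Affymetrix Mouse Gene 1.0 ST arrays held RNA of 3 MTT and 3 MPC samples. The authors made log2 values by RMA (background subtraction, quantile normalization over arrays, summary of each probe set) and deposited them for 34760 probe sets; the methods name Partek and R, the submitters' notes Affymetrix Expression Console, with versions not given in the sources used. Background signal compresses differences of dim genes; precision is limited by how few arrays there are.

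Computed here were names, differences and tests, with limma 3.58.1 (R 4.3.3). Windows and figures were made with pandas 2.3.3 and matplotlib 3.10.9 under Python 3.11.15. Of 21640 probe sets with a single symbol, 21553 matched the RefSeq table of GRCm38.p6, used for names, chromosomes, neighbours and start windows; the build of the arrays is not given. Lines were compared with lmFit and eBayes, two-sided. The members and lists were chosen with earlier results of these data known. By rule, array values are given for each called member and, by p, further members to 12 in all, and up to 4 called genes of each list are named, with Tshr and Gnas in addition; a few others named were chosen after their values were seen. On simulated data of this comparison with 19937 genes, 62 of 100 changes of 0.3 and 100 of 100 changes of 1 (log2) were recovered, with 8 false calls among 170. Alternatives were each gene's own variance, a variance trend with signal, the mean of probe sets, a block for the replicate number, genes above the median signal, adjustment over all probe sets, cyclic loess, centring of arrays or chromosomes, leaving out each array, and other percentiles of the olfactory receptor signals.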

Additional observations from a re-analysis of the deposited data

How the results depend on the processing

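Among the 42 members the counts of 7 higher and 4 lower moved to 5 to 9 and 3 to 5 over the alternatives, and no difference of a called gene changed sign. The other counts depended more on the setting. Where each gene kept its own variance 1 pathway gene was higher and 4 were lower, and over all genes 428 and 396; with adjustment over all probe sets these were 1 and 6, and 411 and 337. With a mean-variance trend 10 pathway genes were higher and 1302 of all genes lower, among genes above the median signal 12 and 1195, and after subtraction of chromosome medians 516 of all genes were higher. Centring array medians turned the split of all genes from 784 higher and 785 lower to 857 and 561. Leaving out an array gave 2 to 4 pathway genes higher and 6 to 10 lower, and 462 to 617 of all genes higher and 429 to 659 lower. The number of members in the olfactory receptor range in both lines was 11, and 9 and 16 with the 90th and 99th percentiles. The titles share replicate numbers but no source says that they mark a shared day. Deviations of arrays with the same number correlated at 0.07 to 0.25 and those of other numbers at -0.16 to 0.07. All 6 arrays correlated best with their own number, a weak hint from the data only. Deviations are from the mean of a line's 3 arrays, so a high value with the same number lowers the others, and the 6 are not independent. With the replicate number as a block the members gave 7 higher and 4 lower again, and all genes 755 and 746. The calls of Prkx and Hcn3 ended under it. In the simulation 62 of 100 changes of 0.3 were recovered, so differences of that size and under can be missed with 3 arrays a line. The simulation drew independent noise and made 170 calls, where the data gave 1569, so the share recovered in the data may differ.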
